A study of Mus musculus with 8 samples.

Results

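The genes followed here belong to the integrated stress response and to its links with the growth kinase complex mTORC1, and were measured in mouse hearts that lack LRPPRC, a mitochondrial RNA-binding protein. They are 10 in number: the 4 kinases of the translation factor eIF2alpha (Eif2ak1, Eif2ak2, Eif2ak3 and Eif2ak4), the regulatory subunits of its phosphatase (Ppp1r15a and Ppp1r15b), the alpha subunit of the exchange factor eIF2B (Eif2b1), and 3 brakes on mTORC1 or on the translation it drives (Ddit4, Sesn2 and Eif4ebp1). The genes were listed by name, with earlier results of these data known, and they make up 10 of the 50599 records per library. Hearts came from male C57BL/6N mice aged 12 weeks, with 4 libraries of Lrpprc loxP/loxP animals, called wildtype here as in the titles of the samples, and 4 of Lrpprc loxP/loxP,Cre+ animals, called knockout. The deletion is restricted to heart and skeletal muscle because loss in the whole body is lethal to the embryo, so cells of the heart that Cre does not reach can keep the gene. Both groups carry the floxed allele, and the effect of Cre on its own cannot be told apart from that of the deletion.

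The integrated stress response converts several kinds of stress into one signal, the phosphorylation of eIF2alpha. Each kinase listens to a different input: Eif2ak1 encodes HRI, which senses heme and takes up a relay from stressed mitochondria, Eif2ak2 encodes PKR, which binds double-stranded RNA, Eif2ak3 encodes PERK, a sensor of unfolded protein in the endoplasmic reticulum, and Eif2ak4 encodes GCN2, which senses uncharged tRNA. Phosphorylated eIF2 blocks eIF2B, translation falls, and a few mRNAs such as that of the transcription factor ATF4 are translated better. The phosphatase subunits PPP1R15A (GADD34, inducible) and PPP1R15B (CReP, constitutive) bring protein phosphatase 1 to eIF2alpha and close the loop. DDIT4 (REDD1) and Sestrin 2 restrain mTORC1, and 4E-BP1, the product of Eif4ebp1, binds the cap-binding protein eIF4E until mTORC1 phosphorylates it. Phosphorylation itself was not measured in these libraries, which hold RNA levels only.

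Promoter windows are shown first for 3 of the genes, since the members that differ most between the groups are known as targets of transcription factors of this response and since Eif2ak2 is known as an interferon-inducible gene. RefSeq windows on GRCm38.p6, of 250 bases before and 50 after the start, matched 8 of the 10 genes, with 9 windows in all, while Eif4ebp1 and Ppp1r15b had no match. The windows below read 5′ to 3′ on the strand of the gene, and capitals mark the letters of the interferon-stimulated response element (GAAA, any 2 bases, GAAA) or TNACGTNA, a relaxed cAMP response element, on either strand. Ppp1r15a is shown because it holds matches to both, Sesn2 because its count differed most between the groups, and Eif2ak2 because its match lies just after the start.
Ppp1r15a, chr7:45526219-45526518, minus strand: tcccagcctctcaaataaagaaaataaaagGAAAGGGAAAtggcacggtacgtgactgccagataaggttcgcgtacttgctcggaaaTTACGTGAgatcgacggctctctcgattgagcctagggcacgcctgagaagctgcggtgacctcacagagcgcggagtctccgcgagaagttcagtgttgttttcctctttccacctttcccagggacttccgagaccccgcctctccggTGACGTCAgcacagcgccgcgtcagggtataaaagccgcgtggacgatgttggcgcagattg
Sesn2, chr4:132510407-132510706, minus strand: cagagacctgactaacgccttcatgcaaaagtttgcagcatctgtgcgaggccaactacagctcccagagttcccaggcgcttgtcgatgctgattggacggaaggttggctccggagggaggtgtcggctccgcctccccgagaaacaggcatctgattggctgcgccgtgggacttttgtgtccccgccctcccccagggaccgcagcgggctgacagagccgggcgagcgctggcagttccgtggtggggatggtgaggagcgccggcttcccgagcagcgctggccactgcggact
Eif2ak2, chr17:78882523-78882822, minus strand: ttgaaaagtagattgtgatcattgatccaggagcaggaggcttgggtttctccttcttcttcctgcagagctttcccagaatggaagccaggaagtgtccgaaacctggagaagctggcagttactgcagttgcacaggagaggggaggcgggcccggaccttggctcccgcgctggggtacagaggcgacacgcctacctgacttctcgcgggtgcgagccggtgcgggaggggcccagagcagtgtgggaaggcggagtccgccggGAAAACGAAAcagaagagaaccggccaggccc
The letters TGATGNAA of the composite element bound by ATF4 with C/EBP proteins, searched on both strands, were in none of the 8 members with a window (0 of 8), in 6 of 11 genes of a list of stress transcription factors and their targets (Atf3, Chac1, Trib3, Asns, Nupr1 and Vldlr) and in 3.97% of the 32851 windows of all genes. With the looser letters TGATGNNA, which include every match to TGATGNAA, 1 of 8 members had a match (Eif2ak4), against 14.5% of all windows. The interferon-stimulated response element, also searched on both strands, was in 2 of 8 members, in Eif2ak2 as GAAAACGAAA from base 19 after the start and in Ppp1r15a as GAAAGGGAAA from base -220, in 10 of 13 interferon response genes and in 3.44% of all windows. TNACGTNA, added after the sequences had been read, was in Ppp1r15a alone among the 8, as TTACGTGA from base -162 and TGACGTCA from base -12, and in 4.49% of all windows. Members and lists were counted by gene, with a match in any window of the gene, whereas the shares over all are of single windows. A match is a run of letters, and a window without one says nothing of a factor that binds elsewhere.

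The libraries held 35218541 to 47743376 expected counts. Mitochondrial rRNA took 44.0 to 46.9% of the counts in wildtype and 65.6 to 67.8% in knockout libraries, so that levels were compared as normalised counts, that is, counts divided by a size factor taken from the typical gene of each library and adjusted for the effective length of the gene. Lrpprc fell from 3665 ± 216 to 577.0 ± 48.6 normalised counts (mean ± SD, n = 4, as for all means given with an SD), a log2 fold change of -2.67, and was lower in each knockout library than in any wildtype library. In a DESeq2 fit of all 8 libraries, 6728 of 19959 genes with an adjusted p passed 0.05, which is 33.7%. Of those tested, 18.2% were higher and 15.5% lower in the knockout, and the median log2 fold change was 0.005. Of the calls, 53.9% were higher, but only 24.6% when libraries were scaled to total counts, and 87.7% when scaled to total counts without the mitochondrial rRNA, because these scalings moved the median gene by -0.30 and 0.43 on the log2 scale. Titles give replicate numbers but not more on the animals, and the paper names 4 control and 4 knockout hearts. The p-values set the difference between the groups against the spread among the 4 libraries within each.

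All 10 genes had an adjusted p, and 5 of them passed 0.05, all higher in the knockout: Sesn2, Eif4ebp1, Ppp1r15a, Eif2b1 and Ppp1r15b. None was lower, nor was any at an unadjusted p under 0.05 or with edgeR, and all 10 log2 fold changes were above 0 in this fit. For comparison, 18.2% of all genes tested were higher. Among the 5, 3 changed by more than 2-fold, Sesn2 by 11.9-fold, Eif4ebp1 by 5.85-fold and Ppp1r15a by 3.24-fold, and these 3 passed in each of the 15 alternative fits. The other two, Eif2b1 and Ppp1r15b, changed by 1.32-fold and 1.19-fold and lost the call in most fits that left out 1 library. Scaled to total counts 3 of the 10 passed as higher, and scaled to total counts without mitochondrial rRNA all 10 did. The 4 kinases and Ddit4 did not pass. The median log2 fold change over the 10 genes was 0.34. Normalised counts did not overlap between the groups in 4 of 10 genes (Ppp1r15a, Ppp1r15b, Sesn2 and Eif4ebp1), against 33.0% of all genes tested.

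**Figure D1:**
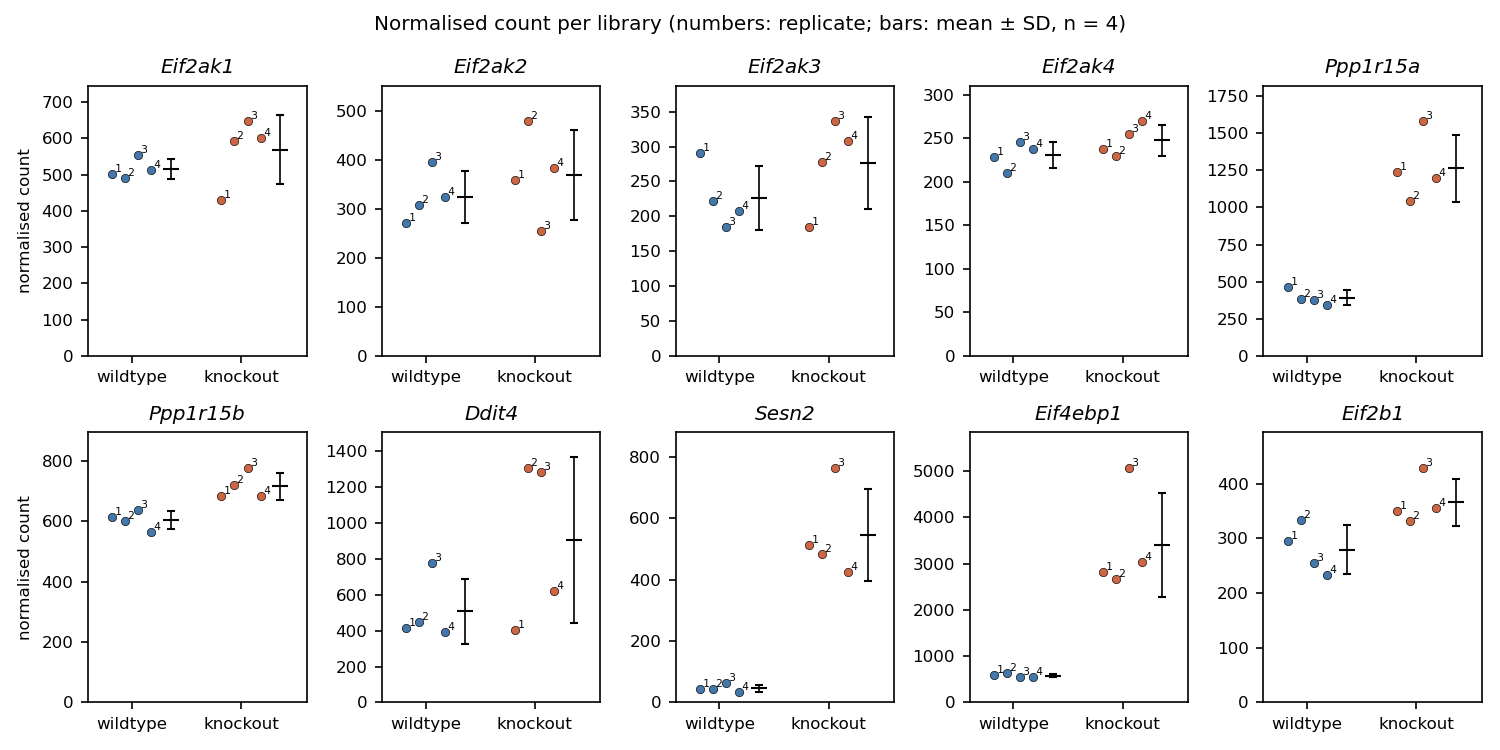
Normalised count of each of the 10 genes (vertical axis, from 0, scaled per gene) in the 4 wildtype and 4 knockout libraries, with the replicate number beside each point and bars for mean ± SD. Sesn2 lies at 34.6 to 62.5 in wildtype and at 425.1 to 764.4 in knockout libraries, whereas the groups overlap in the 4 kinases.

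The sensors come first in the pathway (positions here and below are on GRCm38). None of the 4 kinase genes passed the test (adjusted p by DESeq2 of 0.492, 0.528, 0.320 and 0.582 for Eif2ak1 to Eif2ak4), 0 of 4 had an unadjusted p under 0.05, 0 of 4 passed with edgeR, and the groups overlapped in each. Eif2ak1 (chr5:143817788-143904251, plus strand) stood at 502.7, 491.1, 554.1 and 512.0 normalised counts in wildtype replicates 1 to 4 and at 430.2, 593.6, 647.6 and 602.1 in the knockout replicates. In Eif2ak1, 3 knockout libraries lay above every wildtype library and knockout replicate 1 lay below all of them. The fold change was 1.103, with a 95% interval of 0.906 to 1.34. Eif2ak2 (chr17:78852564-78882573, minus strand) stood at 271.4, 308.2, 396.3 and 323.9 against 359.7, 479.6, 255.7 and 384.4. Here the lowest library of all 8 was knockout replicate 3 and the highest knockout replicate 2, and the fold change of 1.14 had an interval of 0.863 to 1.498.

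Eif2ak3, the sensor of the endoplasmic reticulum (chr6:70844515-70905245, plus strand), stood at 290.6, 221.6, 185.3 and 207.1 normalised counts in wildtype and at 184.1, 277.4, 336.3 and 308.1 in knockout libraries. In Eif2ak3, 2 knockout libraries exceeded the wildtype range and knockout replicate 1 was the lowest of all 8, for a fold change of 1.22 (interval 0.911 to 1.65). Without knockout replicate 1 the gene passed, at a log2 fold change of 0.45 and an adjusted p of 0.0473, as compared with 0.29 and 0.320 in all libraries. Eif2ak4, the amino acid sensor (chr2:118388618-118475234, plus strand), stood at 228.4, 210.8, 246.2 and 238.4 against 237.5, 230.0, 254.9 and 269.8. The coefficient of variation of Eif2ak4 was 6.63% in wildtype and 7.20% in knockout libraries, against 5.32% and 16.7% for Eif2ak1 and 16.1% and 24.9% for Eif2ak2, and its fold change was 1.07 (interval 0.903 to 1.28). The intervals of all 4 kinases leave out a 2-fold change in either direction. The sign of these small differences rests on the scaling: scaled to total counts, which holds the mitochondrial rRNA, all 4 log2 fold changes were below 0, and relative to the median gene of that scaling, which itself stood at -0.28, they were 0.12, 0.18, 0.28 and 0.09.

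The share of each kinase in the summed TPM of the 4 (RSEM's level per length, as a part of all transcripts) also overlapped between the groups. Eif2ak1 made up 36.5 ± 0.468% of the kinase mRNA in wildtype and 35.6 ± 3.30% in knockout libraries. Eif2ak2 took 27.2 ± 3.37% and 27.6 ± 6.46%, Eif2ak3 18.0 ± 3.93% and 19.3 ± 3.33%, and Eif2ak4 18.3 ± 0.625% and 17.6 ± 2.09%. Eif2ak1 had the largest share of the 4 in each of the 8 libraries.

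Around the kinases, 12 genes for their partners and for the catalytic subunits of protein phosphatase 1 were taken from a list. Of the 12, 1 was higher, 2 were lower and 9 did not pass, against 18.2% higher and 15.5% lower over all genes tested, with a median log2 fold change of 0.07; 0 were higher and 6 lower when scaled to total counts, and 8 and 1 without the mitochondrial rRNA. Dele1, whose protein carries the mitochondrial stress signal to HRI, fell from 2165 ± 42.9 to 1186 ± 159 normalised counts (log2 fold change -0.87). Knockout replicate 1 was at 1424 and the other 3 were at 1103 to 1111. Oma1, the inner membrane protease that cleaves DELE1, fell from 443.2 ± 16.7 to 277.4 ± 77.6 (log2 fold change -0.68, adjusted p of 0.00200 by DESeq2), but did not pass with total counts without mitochondrial rRNA (-0.24, adjusted p of 0.359). Ppp1ca, a catalytic subunit of protein phosphatase 1, rose from 2348 ± 42.5 to 3252 ± 575 (log2 fold change 0.47), but did not pass with total counts (0.16, adjusted p of 0.244). Of 17 interferon response genes, among which Eif2ak2 is often counted, none was higher with DESeq2, with edgeR or at an unadjusted p under 0.05. With DESeq2 2 of the 17 were lower, against 15.5% lower over all genes tested. Among the 2 was Stat2, a transcription factor of that response (log2 fold change -0.55, but -0.12 with an adjusted p of 0.658 with total counts without mitochondrial rRNA). The number lower was 1 without wildtype replicates 3 or 4 or knockout replicate 4, 4 without wildtype replicate 1, 8 without knockout replicate 1 and 9 when scaled to total counts. With that scaling 5912 genes of the whole series were lower, against 3100 in the main fit. The median of the interferon list was -0.50, and its summed level was lowest in knockout replicate 3, at 1821 normalised counts, where Eif2ak2 was lowest too.

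Both phosphatase subunits rose, by different amounts. Ppp1r15a (chr7:45522916-45526268, minus strand), the inducible one, stood at 461.3, 380.9, 378.3 and 344.5 normalised counts in wildtype and at 1237, 1043, 1581 and 1197 in knockout libraries. Every knockout library was more than 2 times the highest wildtype library. The gene rose 3.24-fold (95% interval 2.62 to 4.01), a log2 fold change of 1.70 with an SE of 0.157 and an adjusted p of 3.05e-25 by DESeq2. Ppp1r15b (chr1:133131143-133139783, plus strand), the constitutive one, stood at 613.2, 599.7, 636.6 and 565.8 against 683.4, 721.1, 777.3 and 683.5. Its groups did not overlap, but the gap between them was narrow, and it rose 1.19-fold (interval 1.04 to 1.35), with a log2 fold change of 0.25, an SE of 0.0973 and an adjusted p of 0.0361.

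The call of Ppp1r15b ended when any 1 library other than knockout replicate 1 was left out. The adjusted p was then 0.0950, 0.109, 0.0564 and 0.154 without wildtype replicates 1 to 4 and 0.0971, 0.0864 and 0.0524 without knockout replicates 2 to 4, at log2 fold changes of 0.20 to 0.27. It ended with edgeR as well (adjusted p of 0.0512), and scaled to total counts the log2 fold change was -0.05. Per length, Ppp1r15a was the more abundant of the pair in all 8 libraries. Its TPM was 1.88, 1.59, 1.49 and 1.53 times that of Ppp1r15b in wildtype and 4.53, 3.61, 5.09 and 4.39 times in knockout libraries, with no overlap. Its share of the pair went from 61.7 ± 2.48% to 81.3 ± 2.19%.

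Eif2b1 encodes the alpha subunit of eIF2B, which links the complex to phosphorylated eIF2. The gene (chr5:124570213-124579131, minus strand) stood at 295.3, 334.2, 254.5 and 233.5 normalised counts in wildtype and at 349.0, 330.7, 428.9 and 354.4 in knockout libraries. In Eif2b1, 3 knockout libraries were above all wildtype libraries, and knockout replicate 2 fell between wildtype replicates 1 and 2. It rose 1.32-fold (interval 1.06 to 1.63), with a log2 fold change of 0.39, an SE of 0.158 and an adjusted p of 0.0387. The call ended without wildtype replicates 1, 3 or 4 (adjusted p of 0.0699, 0.132 and 0.155) or knockout replicates 1, 3 or 4 (0.0510, 0.106 and 0.0713), with edgeR (0.0518) and with total counts (0.688). The log2 fold change was 0.09 with total counts and 0.31 to 0.42 in the other fits that lost the call.

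Its neighbours in the same step, 8 genes for the other subunits of eIF2B, the subunits of eIF2 and Eif5, were mostly higher: 7 of 8 rose with DESeq2 and 6 with edgeR, none fell with either or at an unadjusted p under 0.05, and the median log2 fold change was 0.61. Over all genes tested, 18.2% were higher and 15.5% lower with DESeq2. Scaled to total counts 5 of 8 rose and none fell. Eif2s2, the beta subunit of eIF2, rose from 968.0 ± 28.8 to 2862 ± 333 normalised counts (log2 fold change 1.56). Eif2b3, the gamma subunit of eIF2B, rose from 179.9 ± 11.6 to 390.4 ± 86.5 (log2 fold change 1.12), and Eif5, which completes the cycle of eIF2, rose from 2205 ± 145 to 3736 ± 742 (log2 fold change 0.76). Eif2b4 was the one that did not pass (log2 fold change 0.15, adjusted p of 0.427 by DESeq2). Within eIF2B, the share of Eif2b1 in the summed TPM of the 5 subunits was 14.9 ± 2.45% and 14.2 ± 0.392%, which overlapped. The share of Eif2b3 went from 10.7 ± 0.3599% to 16.8 ± 1.67% and that of Eif2b4 from 31.02 ± 1.959% to 25.3 ± 2.29%, both without overlap, so the 5 mRNAs did not change in step.

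From the part of the pathway placed downstream of the kinases, 11 stress transcription factors and targets were counted in the same hearts. Whether their RNA levels depended on the kinases or on eIF2alpha was not tested. Of the 11, 10 rose and 1 fell, against 18.2% and 15.5% over all genes tested, with a median log2 fold change of 2.61. Asns, which makes asparagine, was at 18.8 to 49.1 normalised counts in wildtype and at 2289 to 3209 in knockout libraries. Trib3, a pseudokinase induced by this response, was at 13.2 to 43.2 against 1255 to 1449. Chac1, which degrades glutathione, was at 12.7 to 59.9 against 254.8 to 932.6. Atf4, chosen for mention after its values had been seen, rose from 997.3 ± 80.8 to 6084 ± 1048, as did every other gene of the list but Vldlr, a lipoprotein receptor with a log2 fold change of -0.56, also named after its values had been seen. The call of Vldlr held in the fit of all libraries and without knockout replicate 3, and ended when any other library was left out and with edgeR. At 8741 normalised counts, knockout replicate 3 lay above the wildtype range of Vldlr, 7764 to 8146, so the groups overlapped. These genes and the members share all 8 libraries, so both are views of one comparison.

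**Figure D2:**
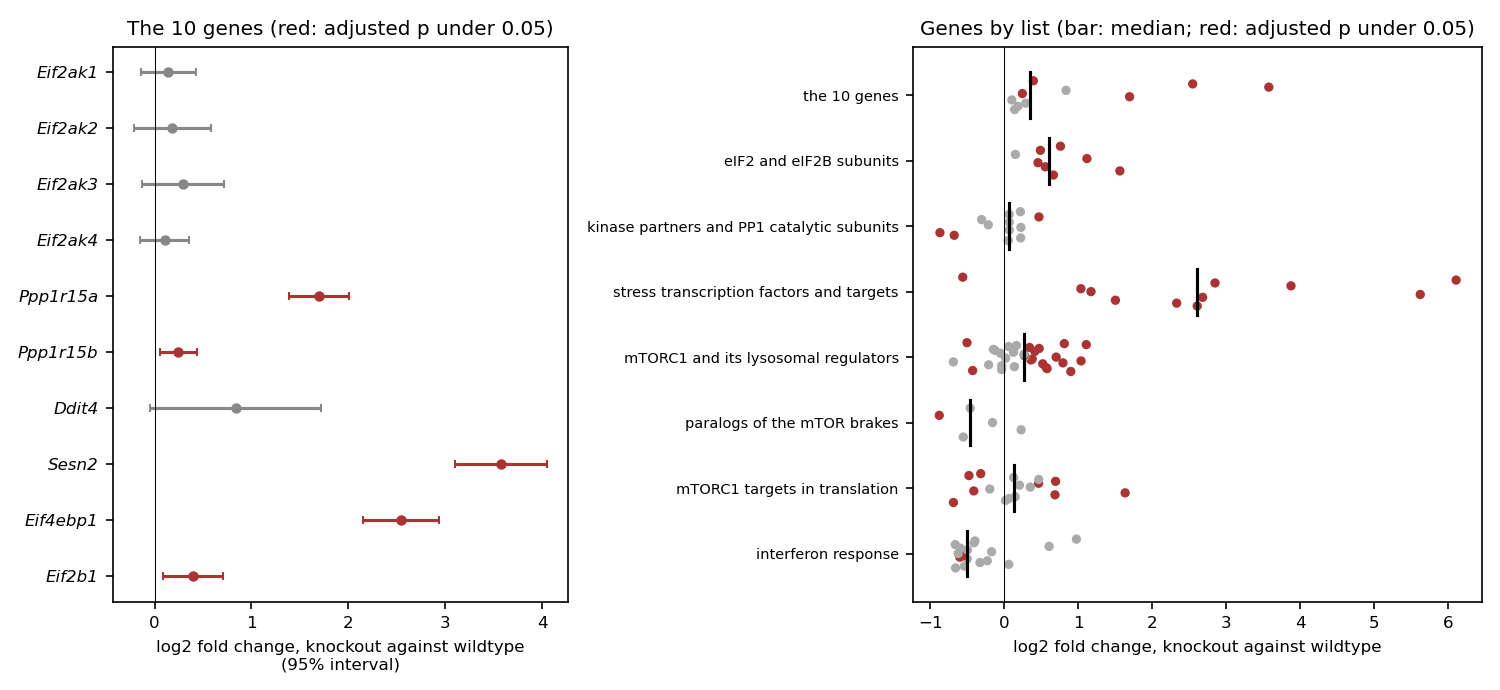
Log2 fold change of knockout against wildtype (horizontal axis) for the 10 genes with 95% intervals, and for each gene of the 10 and of 7 pathway lists, with a bar at the median of each list and red for an adjusted p under 0.05. Sesn2, Eif4ebp1 and Ppp1r15a stand at 3.58, 2.55 and 1.70, and the intervals of the 4 kinases and of Ddit4 cross 0.

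Among the brakes, Sesn2 and Eif4ebp1 rose and Ddit4 did not pass. Ddit4 (chr10:59949669-59951834, minus strand), which acts through the TSC complex and is known to answer to hypoxia and glucocorticoids as well as to ATF4, stood at 412.3, 446.1, 779.1 and 391.3 normalised counts in wildtype and at 405.4, 1309, 1285 and 623.4 in knockout libraries. It was the most variable of the 10 genes, with a coefficient of variation of 36.0% in wildtype and 50.9% in knockout libraries. Knockout replicates 2 and 3 lay above the whole wildtype range and knockout replicate 1 lay among the lower wildtype libraries. The fold change of 1.79 had an interval of 0.970 to 3.29 and did not pass (adjusted p of 0.143 by DESeq2). The summed erythroid markers were also higher in knockout replicates 2 and 3, at 45830 and 53860 normalised counts, than in replicates 1 and 4, at 15230 and 22070, or in the wildtype libraries, at 20880 to 27050. Knockout replicate 1 was the lowest and replicate 3 the highest of the knockout libraries in Eif2ak1, Eif2ak3 and Ppp1r15b as well. In the erythroid sums replicate 2 was above replicate 4, as in Ppp1r15b, whereas in Eif2ak1 and Eif2ak3 it was below. The part of blood RNA in these values was not tested.

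The call of Ddit4 changed with the libraries and settings used. The adjusted p was 0.00666 without wildtype replicate 3, 0.00124 without knockout replicate 1 and 0.0302 without knockout replicate 4, at log2 fold changes of 1.12, 1.08 and 0.98, against 0.84 in all libraries. With genes of low count removed before the fit, it was 0.0427, and with total counts without mitochondrial rRNA it was 0.00113. It did not pass when any of the other 5 libraries was left out.

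Sesn2 (chr4:132492032-132510501, minus strand) was the member that changed most. Sestrin 2 is induced by ATF4 and by other stress factors and restrains mTORC1 through the GATOR complexes. The gene stood at 42.4, 43.6, 62.5 and 34.6 normalised counts in wildtype and at 511.1, 484.0, 764.4 and 425.1 in knockout libraries. Every knockout library was at least 6 times as high as any wildtype library. It rose 11.9-fold (interval 8.56 to 16.6), a log2 fold change of 3.58 with an SE of 0.244 and an adjusted p of 2.70e-46 by DESeq2. Only 1 transcript of Sesn2, of 3475 bases, is annotated, so no shift between isoforms enters this value.

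Its paralogs did not pass. Sesn1 was at 1587 ± 55.3 and 1861 ± 384 normalised counts (adjusted p of 0.240 by DESeq2) and Sesn3 at 586.7 ± 47.5 and 525.5 ± 74.7 (0.402). Sesn1 remained the main sestrin mRNA in both groups: Sesn2 made up 1.97 ± 0.472% of the summed sestrin TPM in wildtype and 17.3 ± 2.25% in knockout libraries, whereas Sesn1 went from 85.6 ± 0.550% to 74.2 ± 1.92%. The TPM of Sesn2 was 0.0230 ± 0.00548 times that of Sesn1 in wildtype and 0.234 ± 0.0337 times in knockout libraries. Ddit4l, the paralog of Ddit4, was low, at 34.4 ± 13.7 and 23.0 ± 9.44 normalised counts, and did not pass (adjusted p of 0.325).

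Eif4ebp1 (chr8:27260329-27276674, plus strand) had the highest mean level per length of the 10 genes in both groups, with both of its transcripts counted. Its coding transcript alone, estimated as described below, averaged 6.74 TPM in wildtype libraries, where Ddit4 averaged 8.82. It stood at 596.6, 631.1, 549.5 and 551.5 normalised counts in wildtype and at 2830, 2675, 5077 and 3032 in knockout libraries. Knockout replicate 3 was far above the other 3, and all 4 were more than 4 times the highest wildtype library. The gene rose 5.85-fold (interval 4.45 to 7.68), a log2 fold change of 2.55 with an SE of 0.200 and an adjusted p of 7.16e-35 by DESeq2. Without knockout replicate 3 the log2 fold change was 2.29.

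Its paralog moved the other way. Eif4ebp2 fell from 624.6 ± 47.0 to 340.5 ± 59.9 normalised counts (log2 fold change -0.88, SE 0.152, adjusted p of 1.03e-07 by DESeq2), and Eif4ebp3 was listed at a mean of 5.51 and 4.05. The TPM of Eif4ebp1 was 4.15 ± 0.218 times that of Eif4ebp2 in wildtype and 44.5 ± 10.9 times in knockout libraries. As a share of the summed TPM of the 3 binding proteins, Eif4ebp1 went from 79.4 ± 1.93% to 97.5 ± 0.685% and Eif4ebp2 from 19.1 ± 0.637% to 2.28 ± 0.512%. Taken as a share of counts, which are not per length, Eif4ebp1 went from 48.1 ± 0.735% to 90.3 ± 3.02%. Eif4e, the mRNA of the protein that 4E-BP1 binds, fell, and the TPM of Eif4ebp1 was 0.371, 0.378, 0.334 and 0.342 times that of Eif4e in wildtype and 2.67, 2.48, 6.72 and 2.60 times in knockout libraries. These ratios of members that rose are given as descriptions, with no test. The shares and ratios count both annotated transcripts of Eif4ebp1, of which only the longer is coding. Proteins may not follow these ratios, and they were not measured here.

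**Figure D3:**
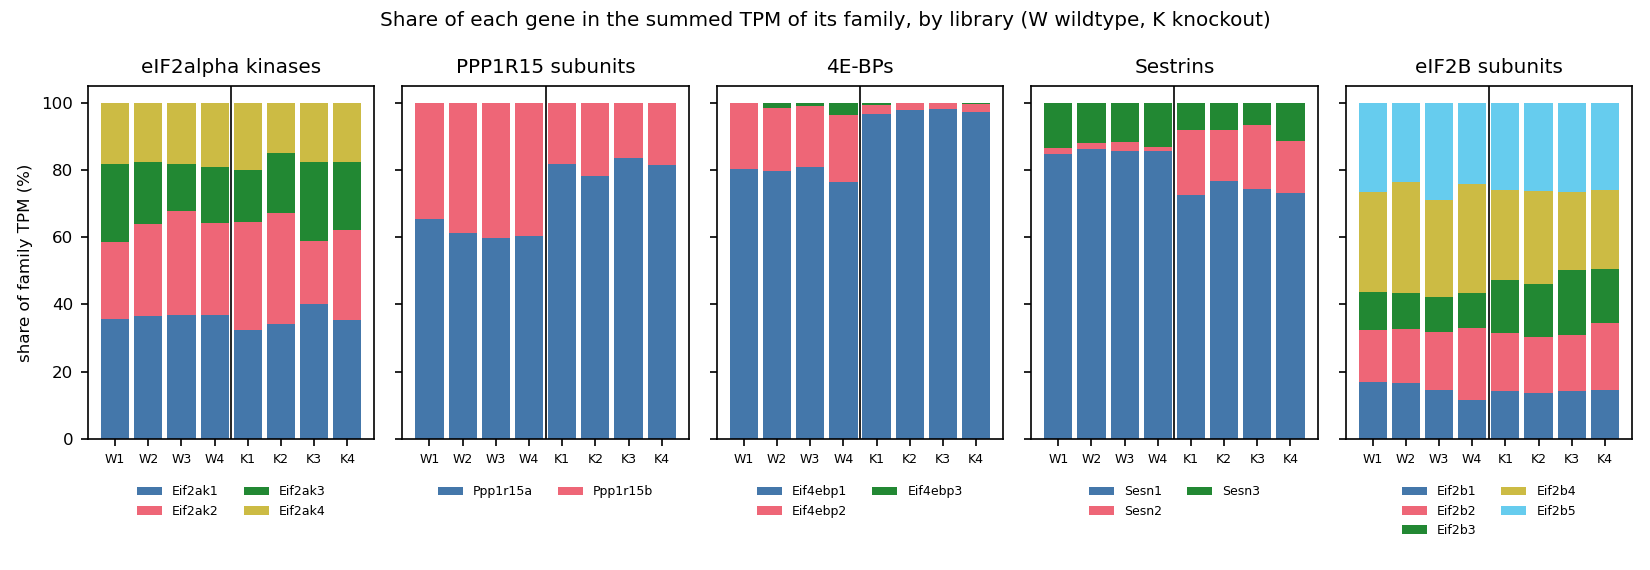
Share of each gene in the summed TPM of its family (vertical axis, 0 to 100%), stacked for each of the 4 wildtype (W) and 4 knockout (K) libraries. Ppp1r15a goes from 61.7 to 81.3%, Eif4ebp1 from 79.4 to 97.5% and Sesn2 from 1.97 to 17.3% on average, while the shares of the 4 kinases overlap between the groups.

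The length that RSEM assigned to Eif4ebp1, an average over its transcripts weighted by their abundance, also differed between the groups. It was 1396, 1351, 1331 and 1445 bases in wildtype and 1269, 1277, 1256 and 1274 bases in knockout libraries, without overlap. Among the 8 members whose length varied this held for 1, and among the 8313 genes that averaged 100 normalised counts or more and whose length varied it held for 10.2%. The gene has 2 annotated transcripts, a coding one of 1997 bases and a processed transcript of 798 bases. For the average lengths to arise from these, the coding transcript has to make up 49.9, 46.1, 44.5 and 54.0% of the molecules in wildtype and 39.3, 40.0, 38.2 and 39.7% in knockout libraries. The TPM of the coding transcript worked out in this way was 6.74 ± 0.611 and 28.6 ± 7.26, a ratio of 4.25, against 5.27 for the gene as a whole. Both ratios are lowered by the larger share of mitochondrial rRNA in the TPM total of the knockout libraries, and only their difference from each other is of use here. Short reads divided between overlapping transcripts give only an estimate of such shares. In the other members the length overlapped between the groups or, in Ddit4 and Sesn2, came from 1 transcript. For Ppp1r15a it was 1998 bases in wildtype replicate 1 and 2352 to 2362 bases in the other 7 libraries.

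**Figure D4:**
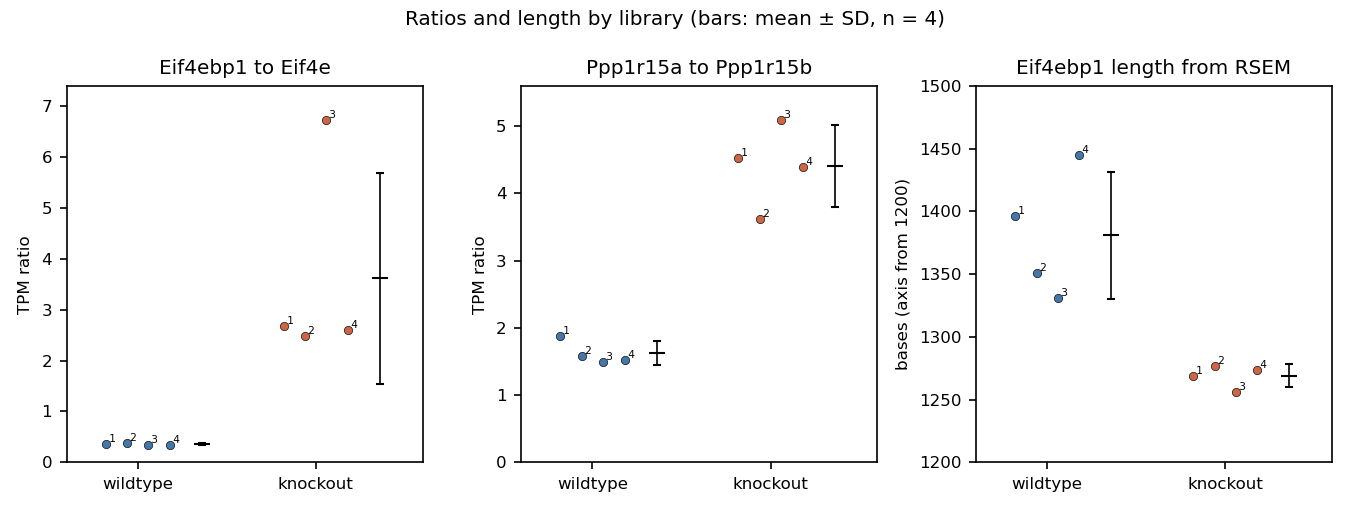
TPM of Ppp1r15a over that of Ppp1r15b, TPM of Eif4ebp1 over that of Eif4e (both axes from 0), and the RSEM length of Eif4ebp1 in bases (on an axis that does not start at 0), per library with mean ± SD. None of the 3 overlaps between the groups, and knockout replicate 3 stands at 6.72 in the ratio of Eif4ebp1 to Eif4e.

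No other gene of the mTORC1 lists changed as much as Sesn2 or Eif4ebp1. Of 31 genes for mTORC1 and its lysosomal regulators, 15 were higher, 2 were lower and 14 did not pass. Over all genes tested 18.2% were higher and 15.5% lower. The median log2 fold change of the 31 was 0.27. The split followed the scaling: 6 were higher and 8 lower with total counts, and 24 and 0 with total counts without mitochondrial rRNA. Fnip2, a partner of folliculin in nutrient sensing, rose from 699.5 ± 109 to 1511 ± 181 normalised counts (log2 fold change 1.11). Rragc, a Rag GTPase that recruits mTORC1 to the lysosome, rose from 487.1 ± 39.0 to 1001 ± 327 (1.04), and Mtor, the kinase, rose from 1733 ± 84.6 to 3236 ± 1197 (0.90). The 2 that fell, named after their values had been seen, were Castor2, a homologue of the arginine sensor (log2 fold change -0.50), and Rptor, the scaffold of the complex (-0.43). Of 16 genes for mTORC1 targets in translation and autophagy, 4 rose and 4 fell, against 18.2% and 15.5% over all genes tested, with a median of 0.14, whereas 3 rose and 7 fell with total counts and 11 and 0 without mitochondrial rRNA. The helicase Eif4a1 rose from 1867 ± 42.2 to 5799 ± 1088 normalised counts (log2 fold change 1.64), and Eef2, the elongation factor, and Eif4b, the partner of the helicase, rose by log2 fold changes of 0.69 and 0.69. The other gene that rose was Rps6 (0.47), and those that fell were Eif4e (-0.69), Ulk1 (-0.48), Eif4a2 (-0.41) and Tfeb (-0.32), all 5 named after their values had been seen. The number that fell was 2 without wildtype replicates 1, 3 or 4 or without knockout replicates 2 or 4. In the list of the 5 paralogs of the brakes, none was higher with DESeq2, with edgeR or at an unadjusted p under 0.05, and 1 was lower, with a median of -0.46.

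Levels per length put the 10 genes in a different order in the 2 groups. TPM counts the mitochondrial rRNA in its total, so it serves here for an order within a group. The values of Eif4ebp1 take in both of its transcripts, the coding and the processed one. In wildtype libraries Eif4ebp1 led at 13.9 ± 1.11 TPM, followed by Ddit4 at 8.82 ± 3.21, Ppp1r15a at 5.05 ± 0.719, Eif2b1 at 4.86 ± 0.840, Eif2ak1 at 3.59 ± 0.194, Ppp1r15b at 3.11 ± 0.201, Eif2ak2 at 2.68 ± 0.425, Eif2ak4 at 1.80 ± 0.111, Eif2ak3 at 1.77 ± 0.376 and Sesn2 at 0.383 ± 0.100. Of these neighbours, Eif4ebp1 and Ddit4, Ppp1r15a and Eif2b1, Ppp1r15b and Eif2ak2, and Eif2ak4 and Eif2ak3 overlapped in their ranges. In knockout libraries Eif4ebp1 stood at 73.2 ± 20.03 TPM, apart from all others, and every later pair of neighbours overlapped: Ppp1r15a at 14.7 ± 1.92, Ddit4 at 14.3 ± 7.08, Eif2b1 at 5.77 ± 0.477, Sesn2 at 4.10 ± 0.856, Eif2ak1 at 3.62 ± 0.676, Ppp1r15b at 3.36 ± 0.192, Eif2ak2 at 2.81 ± 0.827, Eif2ak3 at 1.97 ± 0.492 and Eif2ak4 at 1.77 ± 0.212. Sesn2, the last of the 10 in wildtype hearts, was in place 5 in knockout hearts.

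The genes with the most similar profile were found for the 3 members that changed more than 2-fold, as the smallest root mean square difference of centred log2 values over the 8 libraries, among the 10446 genes that averaged 100 normalised counts or more. For Ppp1r15a these were Trim47 (0.116), Dennd4a (0.124) and Eif3c (0.1245), the last a subunit of the initiation factor eIF3. For Sesn2 they were Pmm1 (0.299), a phosphomannomutase, Cyb5r1 (0.316), a cytochrome b5 reductase, and Ighg2c (0.322), an immunoglobulin gene whose reads can be shared with near copies. For Eif4ebp1 they were Esd (0.1195), Gss (0.144), which makes glutathione, and Ncam1 (0.174), an adhesion molecule. With a pseudocount of 10 in place of 1, Ighg2c left the first 3 and the other 8 of 9 stayed. The distances of Sesn2 were the widest, so its profile had no close match at this level. The profiles mostly reflect the difference between the 2 groups, and they are a description over 8 libraries.

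Knockout replicate 3 stood apart in several members. It was the highest knockout library in 7 of the 10 genes and the lowest in 1, Eif2ak2, whereas knockout replicate 1 was the highest in none and the lowest in 4. Cell type markers were set beside this, because in whole hearts fewer cells of a type and less RNA per cell cannot be told apart. Their counts are to be read against 18.2% higher and 15.5% lower over all genes tested. The cardiomyocyte markers were abundant in all 8 libraries, and 6 of 8 were lower and 1 higher in the knockout, with summed levels of 1063000 to 1173000 normalised counts in wildtype and 559100 to 712300 in knockout libraries. Fibroblast markers were higher in 4 of 7 and lower in 0, with sums of 18170 to 18950 against 19170 to 64150, and macrophage markers were higher in 6 of 7 (4 with edgeR), with sums of 3143 to 4061 against 3633 to 8401. Knockout replicate 3, the highest in Sesn2, Eif4ebp1 and Ppp1r15a, had the lowest fibroblast sum of the knockout libraries, at 19170, and the lowest macrophage sum, at 3633. Atrial markers were lower in 2 of 4, with sums of 9980 to 12040 against 1268 to 6012, and smooth muscle markers in 2 of 4, with 5513 to 7139 against 1829 to 4241. No endothelial, erythroid, adipose or lymphocyte marker passed with DESeq2 or edgeR (at an unadjusted p under 0.05, 3 of 6 endothelial markers and none of the others did), and the sums of the lymphocyte markers, of which 1 of 6 was at or below 3 counts in every library, were 13.97 to 38.5 and 6.18 to 53.0. The part of cell composition in the values of the 10 genes was not tested.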

How the data were processed

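RNA levels were taken from the hearts of 4 wildtype and 4 knockout mice, grouped by the titles of the samples, as total RNA depleted of cytoplasmic rRNA. For the deposited expected counts, the authors aligned read pairs with bowtie2 within RSEM 1.2.31, counting the reverse strand, against GENCODE M13 (mm10) supplemented by their own mitochondrial sequences. RSEM divides reads that match several genes. The deposited TPM values and the deposited lengths and effective lengths in bases, other values by the authors, come from the same runs. TPM was used for levels per length, shares and ratios. A deposited table of the authors' own fold changes and p-values and 8 columns of normalised counts that match no sample label were not used.

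Expected counts were rounded and fitted with DESeq2 1.42.0 in R 4.3.3, with genotype as the only term and effective length as an offset, over all genes. An adjusted p under 0.05 (Benjamini-Hochberg) was a call, and intervals are at 95%. Alternatives used edgeR 4.0.16 (quasi-likelihood with TMM), other scalings, no length offset, a minimum of 10 counts in 4 libraries, replicate numbers as a block, and each library left out. The fits were also run on simulated counts drawn with the spread of the wildtype libraries. These do not cover the wider spread of the knockout libraries. Libraries held 35218541 to 47743376 counts, and every member had at least 40 counts in each library. Gene names and positions come from GENCODE M21 on GRCm38, and 162 of 165 list names matched. The members and lists were chosen with earlier results of these data known. Named genes are the 10 members, Lrpprc, the 3 called genes of each pathway list with the largest change, and the 3 most similar profiles for each member called and changed at least 2-fold (a pseudocount of 1 before log2). A named gene of the interferon list is not reported here.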

Additional observations from a re-analysis of the deposited data

Results flagged for a closer look

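In a group of 4 libraries, a library was marked when its gap to the nearest of the others took up most of the range of the group (above Dixon's 95% critical value). Of 56 groups, from 28 genes in both genotypes, 7 were marked, and chance marks about 1 in 20 groups, or 2.8 here.

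Among the 10 genes, 2 groups were marked. Ddit4 stood at 779.1 normalised counts in wildtype replicate 3, against 391.3 to 446.1 in the other wildtype libraries. Eif4ebp1 stood at 5077 in knockout replicate 3, against 2675 to 3032 in the other knockout libraries.

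The same knockout replicate 3 was marked in 4 pathway genes: Eif2b3 at 519.9 normalised counts (others 341.8 to 354.8), Rragc at 1490 (816.1 to 871.6), Mtor at 5012 (2395 to 2773) and Eif4a1 at 7419 (5076 to 5354). Dele1 was marked in knockout replicate 1, at 1424 against 1103 to 1111, where it lay closer to the wildtype libraries. Knockout replicate 3 thus held 5 of the 7 marks, and its part in the results was not tested beyond the fits that left it out.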

How the results depend on the processing

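Ppp1r15a, Sesn2 and Eif4ebp1 were called in all 15 alternative fits, and no member was called lower in any. The number of members called higher, 5 in the main fit, was 3 with edgeR and TMM, 3 with total counts, 10 with total counts without mitochondrial rRNA, and 3 to 6 when 1 library was left out. Of these fits without 1 library, 3 members were called without wildtype replicate 1, wildtype replicate 4 or knockout replicate 3. With total counts the log2 fold change of Eif2ak1 was -0.15, of Eif2ak2 -0.097, of Eif2ak3 -0.0018, of Eif2ak4 -0.19 and of Ppp1r15b -0.052, where the median gene itself stood at -0.28. The share of Ppp1r15a in its pair differed between the groups by 25.5 percentage points in expected counts (19.6 in TPM), and that of Eif4ebp1 by 42.2 (18.1 in TPM), since counts are not per length. In the promoters, 1 member matched TGATGNNA and 1 matched TNACGTNA, against 0 for TGATGNAA. With the replicate block, 4 members were called, Ppp1r15a, Ddit4 (log2 fold change 0.73, adjusted p of 0.00837 by DESeq2), Sesn2 and Eif4ebp1, and over all genes 5525. Same-numbered libraries did not deviate together (correlations of -0.0136, -0.0436, -0.0735 and 0.0723), so the numbers were not taken as pairs. Over all genes, 5525 to 9061 were called in the alternatives, against 6728. The cause of these differences was not tested beyond the construction of each alternative. With 4 libraries per group, the 95% interval of Ddit4 spanned 0.970 to 3.29-fold.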
